A study of Mus musculus with 2 samples.

Results

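The 10 genes described here are transcription factors and cofactors of haematopoietic stem cells: *Hlf*, *Mecom*, *Meis1*, *Mllt3*, *Nkx2-3*, *Gata2*, *Lmo2*, *Tal1*, *Myb* and *Spi1*. They were chosen by name, with earlier results of these data known. All 10 were found among the 22652 genes with a UMI in the 2 count tables. A unique molecular identifier (UMI) tags 1 captured transcript molecule. Each gene was followed across the published cell classes of the wild-type library and, between the 2 libraries, across classes rebuilt by clustering.

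The study asked how the fetal bone marrow niche, and Wnt ligand release by arterial endothelial cells (ECs) within it, relates to haematopoietic stem and progenitor cells (HSPCs). Bone marrow cells of C57BL/6 mouse embryos at stage E18.5 were depleted of lineage-committed blood cells and profiled with BD Rhapsody whole-transcriptome sequencing, with 1 library per genotype. The first library was WT. The other (Bmx-CreER Wls, called the Wls mutant) came from embryos in which a tamoxifen-inducible Cre, driven by the arterial EC gene *Bmx*, deleted the loxP-flanked *Wls* gene, after tamoxifen was given to the pregnant dams on days before collection. Litter and tamoxifen exposure of the WT library and the number of pooled embryos are not named, so genotype, litter, tamoxifen and library cannot be told apart. The WT library held 5998 barcodes and 22708005 UMIs, and 5736 cells passed the filter of over 200 and under 5000 genes and under 30% mitochondrial UMIs, with a median of 3128 UMIs. The Wls mutant library held 6825 barcodes and 24704991 UMIs, and 6620 cells passed with a median of 3067. The libraries shared 49 barcodes, none of them in the stem and multipotent-like cells described later. A level is the UMI sum of 1 gene over a class, scaled to 1000000 UMIs in all (CPM). Ranges in parentheses are 95% intervals (exact Poisson for levels, Clopper-Pearson for shares, exact conditional binomial for ratios). They cover counting error only, and with 1 library per genotype no test between genotypes was possible.

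Stem cells of the fetus arise from arterial endothelium, pass through the liver and reach the marrow shortly before birth. *Gata2*, *Lmo2* and *Tal1* act in shared complexes that set blood identity, and *Hlf*, *Mecom*, *Meis1* and *Mllt3* are best known for keeping stem cells undifferentiated. Several of them also serve outside the stem cell, in endothelium, erythroid precursors, mast cells, megakaryocytes or osteoclasts.

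*Wls*, the carrier that Wnt ligands need for secretion, was read first as a check of the genotype label. In the cells nearest to the listed arterial ECs, *Wls* had 11 UMIs in 74 WT cells, 45.6 CPM (22.8 to 81.7), and 2 UMIs in 67 Wls mutant cells, 7.16 CPM (0.868 to 25.9). The Wls mutant value was lower, with intervals that overlapped. *Bmx* itself was at 120.3 CPM (80.6 to 173) and 254 CPM (199 to 321) in these cells, higher in the Wls mutant library. In all endothelial-like cells *Wls* was at 42.2 CPM (33.6 to 52.2) in the WT and 23.0 CPM (16.6 to 31.1) in the Wls mutant library, with intervals that did not overlap. Over all cells it was also lower in the Wls mutant library, at 135 CPM (130.3 to 140.0) and 112 CPM (108 to 117). In stem and multipotent-like cells, where the Cre driver *Bmx* had 4 UMIs in the WT and 0 in the Wls mutant library, *Wls* was at 84.1 CPM (67.6 to 103) and 59.3 CPM (42.0 to 81.4). A 3′ count that lies outside the deleted part of the gene checks nothing, and the position of the deleted part was not known here.

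The cell class labels were read next against marker lists. All 8 megakaryocyte markers were detected in the 89 listed megakaryocyte progenitors, at 299.9 CPM together, led by *Itga2b*. Yet 49 of the 89 (55.1%) fell in the stem and multipotent-like clusters and 32 (36.0%) in the megakaryocyte-like cluster. Marker detection in the summed cells thus does not settle the label for each cell. For the listed neutrophil progenitors (139 cells) the data did not support the label: *Mmp8* (11.2 CPM) was the only detected gene of 8 neutrophil markers, while the osteoclast markers summed to 44254 CPM, led by *Ctsk* (18556 CPM). The absence of the other neutrophil markers says little, since they were scarce in the whole WT library, from 2 UMIs of *Ltf* to 126 of *Lcn2*, against 112 and 583 in the Wls mutant library. *Ngp* had 0 and 415 UMIs, and whether it was counted in the WT library is not known. Of these cells, 88 (63.3%) fell in the osteoclast-like clusters and 40 in an unnamed cluster. They are called *Ctsk*-high listed progenitors in what follows, and osteoclasts, for which no class is listed, are the osteoclast-like cells. In the 64 listed erythroid cells, the erythroid markers summed to 645 CPM, with *Alas2* and *Slc4a1* at 0. The stromal markers of the BMSC list (bone marrow stromal cells) stood at 4081 CPM in the same cells, led by *Col1a1*.

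Among the 4 listed HSPC subsets, 0 of the 10 genes had their highest level in the multipotent HSPCs, against 19.4% of the 3666 genes with at least 200 UMIs in these subsets. The megakaryocyte progenitors held the highest level of 7 members (*Hlf*, *Mecom*, *Meis1*, *Mllt3*, *Lmo2*, *Tal1* and *Nkx2-3*), against 32% of these genes. Myeloid progenitors led for 2 (*Gata2* and *Myb*), against 19.2%, and the *Ctsk*-high listed progenitors for 1 (*Spi1*), against 29.4%. Of the 10 members, 7 reached the minimum of 200 UMIs, and of these 4 were highest in megakaryocyte progenitors, 2 in myeloid progenitors and 1 in the *Ctsk*-high listed progenitors. All members but *Spi1* had a higher level in the listed megakaryocyte progenitors than in the listed multipotent HSPCs, in value if not always beyond counting error, while *Spi1* was lower there, with a ratio of 0.248 (0.155 to 0.378). That order held in value for all members but *Lmo2* when both subsets were limited to the 2 stem clusters, described later. The subsets were not matched by cluster there, with 31 of 90 multipotent HSPCs and 38 of 49 megakaryocyte progenitors in cluster 0. With multipotent HSPCs from the stem clusters and megakaryocyte progenitors from the megakaryocyte-like cluster, the order turned for *Hlf*, *Mecom*, *Nkx2-3* and *Myb*. The plot of levels by class shows all 10 genes.

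**Figure D1:**
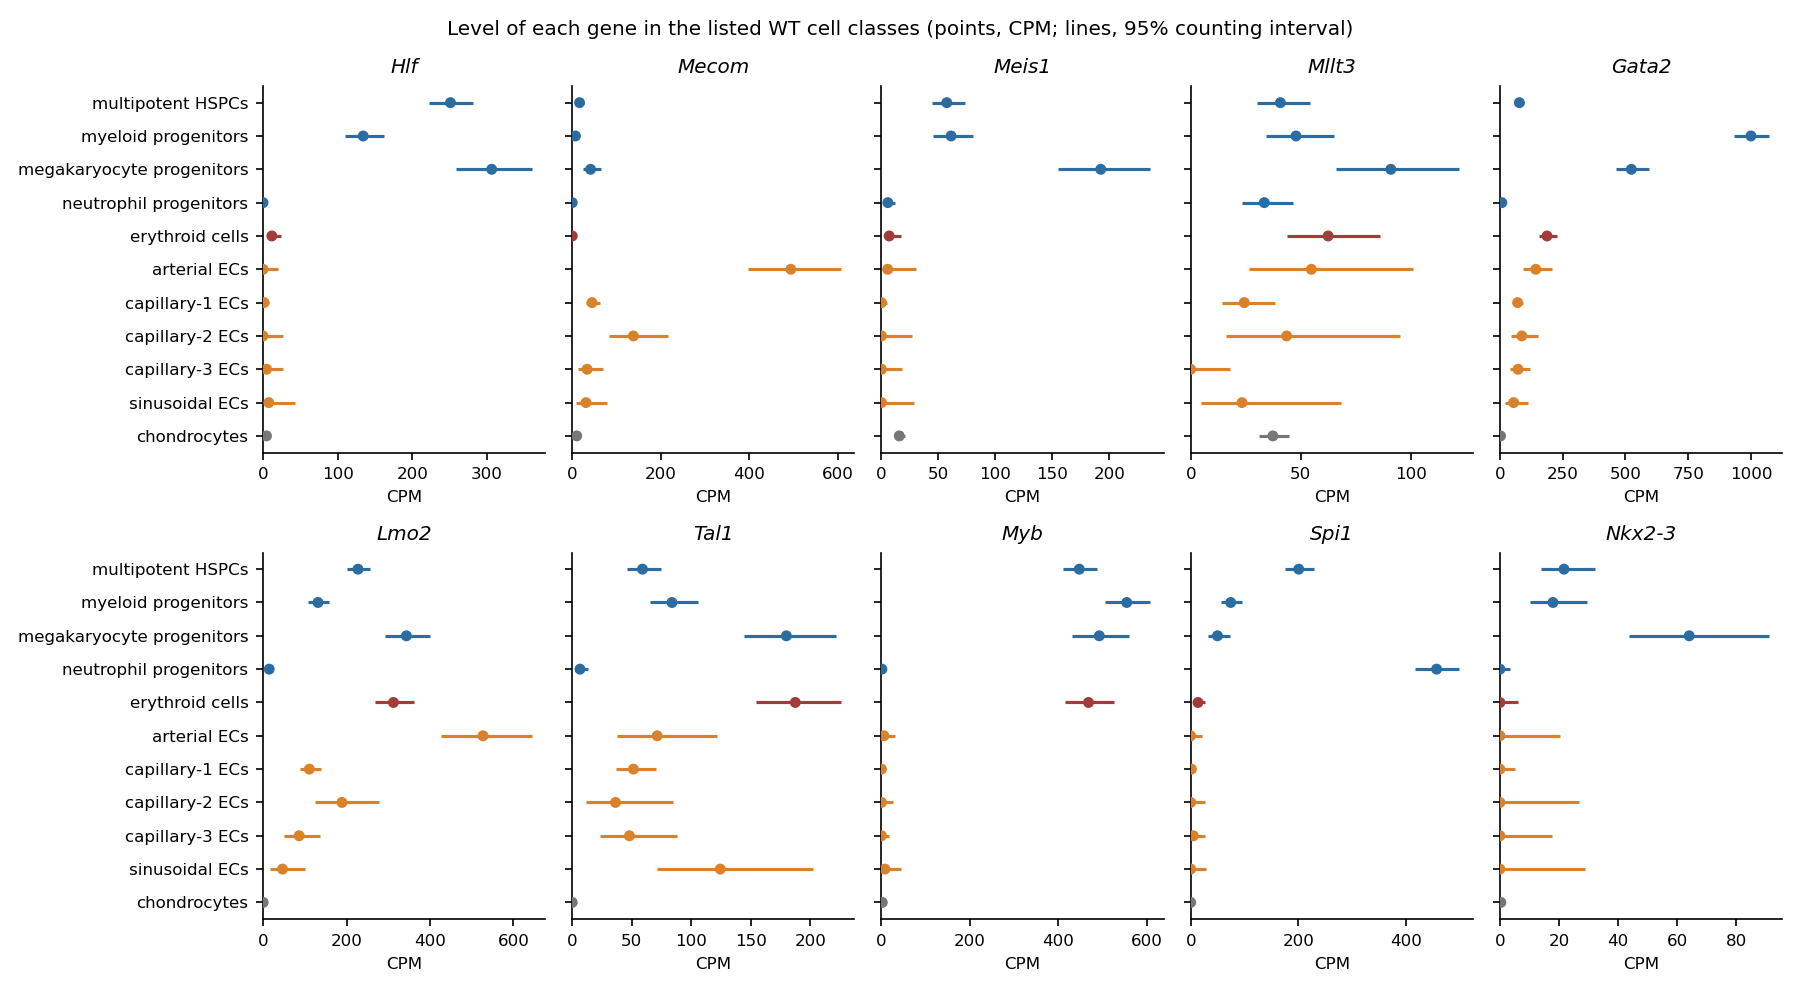
Level of each of the 10 genes (CPM, 95% counting intervals) in the 4 listed HSPC subsets, erythroid cells, ECs and chondrocytes of the WT library. *Hlf* peaked at 306 CPM in megakaryocyte progenitors, *Mecom* at 494 CPM in arterial ECs and *Spi1* at 456 CPM in the *Ctsk*-high cells listed as neutrophil progenitors.

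*Hlf*, a basic leucine zipper factor that marks stem cells (chr11:90336536-90390895, minus strand, GRCm38 as for all positions), was at 306 CPM (259 to 359.6) in megakaryocyte progenitors and 251 CPM (223 to 282) in multipotent HSPCs. The ratio of these neighbours was 1.22 (0.994 to 1.49), so they did not differ beyond counting error. Myeloid progenitors followed at 134 CPM, and the multipotent level was 1.87-fold (1.499 to 2.35) higher than theirs. *Hlf* was largely a gene of these 3 subsets, since the next class, the osteolineage cells OLCs-1, stood at 39.9 CPM. It had 0 UMIs in the *Ctsk*-high listed progenitors and 3 UMIs in all 435 listed ECs. Erythroid cells were at 11.8 CPM and chondrocytes, a type that should lack blood factors, at 4.595 CPM.

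*Mecom*, a zinc finger factor needed for stem cell self-renewal and also made by arterial endothelium (chr3:29951296-30548008, minus strand), had a different order. Its level was 494 CPM (397 to 607) in arterial ECs and 138 CPM in capillary-2 ECs, a ratio of 3.58 (2.16 to 6.21). Capillary-1 ECs were at 44.7 CPM, capillary-3 ECs at 33.6 CPM and sinusoidal ECs at 31.1 CPM. *Mecom* was thus an arterial gene first in this library. Of the blood subsets, megakaryocyte progenitors reached 41.4 CPM (25.3 to 63.9) and multipotent HSPCs 16.5 CPM (9.93 to 25.8). Those 19 UMIs in 173 multipotent cells lay close to the chondrocyte level of 10.1 CPM, with overlapping intervals. Erythroid cells and the *Ctsk*-high listed progenitors had 0 UMIs each.

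*Meis1*, a homeodomain cofactor of the Hox proteins (chr11:18879817-19018985, minus strand), stood highest in megakaryocyte progenitors at 192 CPM (155 to 236). This was 3.15-fold (2.22 to 4.52) above the myeloid progenitors (61.1 CPM), whose level did not differ from that of multipotent HSPCs (57.3 CPM) beyond counting error. *Meis1* fell to 6.76 CPM in erythroid cells, 5.58 CPM in the *Ctsk*-high listed progenitors and 1 UMI in all listed ECs. All 3 were below the 15.6 CPM of chondrocytes.

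*Mllt3*, a chromatin reader of the super elongation complex that supports stem cell maintenance (chr4:87769925-88033364, minus strand), was spread over nearly all classes. Megakaryocyte progenitors were at 91.0 CPM (66.1 to 122), mural cells at 75.4 CPM and erythroid cells at 62.5 CPM. Multipotent HSPCs, at 40.8 CPM (29.98 to 54.3), were level with chondrocytes at 37.4 CPM (31.0 to 44.6). Neighbours in the upper part of the *Mllt3* order could not be told apart by their intervals.

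*Nkx2-3*, an NK-type homeobox gene known from spleen and gut vessels (chr19:43612325-43615892, plus strand), was the rarest member, with 74 UMIs in the whole WT library. It was at 64.1 CPM (43.6 to 91.0) in megakaryocyte progenitors, 21.7 CPM in multipotent HSPCs and 17.96 CPM in myeloid progenitors. The megakaryocyte level was 2.95-fold (1.69 to 5.22) above the multipotent one, while the latter and the myeloid level did not differ beyond counting error. Erythroid cells, the *Ctsk*-high listed progenitors and all listed ECs had 0 UMIs. *Nkx2-3* was therefore detected in the immature listed subsets and hardly elsewhere, with 1 UMI in 953 chondrocytes.

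*Gata2*, a zinc finger factor needed for stem cell emergence and for mast cells (chr6:88193891-88207032, plus strand), was at 999.7 CPM (933 to 1069.8) in myeloid progenitors. Megakaryocyte progenitors followed at 523 CPM, a ratio of 1.91 (1.66 to 2.21). Erythroid cells were at 187 CPM and arterial ECs at 143 CPM. Multipotent HSPCs reached 77.3 CPM (62.1 to 95.1), within the range of the capillary ECs (70.4 to 87.3 CPM). Of the 144 myeloid progenitors 63 (43.8%) fell in the basophil and mast-like clusters, where *Gata2* was at 1530.4 CPM.

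*Lmo2*, the LIM-only bridge between *Tal1* and GATA factors (chr2:103957986-103981878, plus strand), was shared by blood and endothelium. Arterial ECs were at 527 CPM (427 to 644), 1.53-fold (1.18 to 1.98) above megakaryocyte progenitors (343 CPM). The latter and erythroid cells (312 CPM) did not differ beyond counting error. The multipotent level was 227 CPM, and the other ECs ranged from 46.7 CPM in sinusoidal to 189 CPM in capillary-2 ECs. The 0.306 CPM of chondrocytes show how little *Lmo2* reached a class that should lack it.

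*Tal1*, a basic helix-loop-helix factor of blood and erythroid commitment (chr4:115056426-115071755, plus strand), was at 187 CPM (154 to 226) in erythroid cells and 180.0 CPM (144 to 222) in megakaryocyte progenitors, with a ratio of 1.04 (0.780 to 1.396). Sinusoidal ECs were at 124 CPM (71.1 to 202), above arterial ECs at 71.4 CPM (38.0 to 122) in value, but the ratio of 1.74 (0.786 to 3.94) held 1. Multipotent HSPCs, at 59.0 CPM, stood near all listed ECs at 58.8 CPM, and chondrocytes had 0 UMIs.

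*Myb*, the factor that sustains proliferating progenitors (chr10:21124935-21160984, minus strand), varied little over 4 blood classes. Its level was 554 CPM (505 to 607) in myeloid progenitors, 492 CPM in megakaryocyte progenitors, 468 CPM in erythroid cells and 447 CPM (409 to 487) in multipotent HSPCs, and no neighbours in this order differed beyond counting error, though the myeloid level was 1.24-fold (1.09 to 1.41) above the multipotent one. The next class, the mitotic stromal cells, was at 8.19 CPM, and the multipotent level was 54.6-fold (27.5 to 127) above it. The *Ctsk*-high listed progenitors had 1 UMI, which set them apart from the other HSPC subsets.

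*Spi1*, which encodes the ETS factor PU.1 of myeloid cells and osteoclasts (chr2:91082390-91115756, plus strand), was the opposite case. The *Ctsk*-high listed progenitors were at 456 CPM (417 to 499), 2.28-fold (1.94 to 2.67) above multipotent HSPCs (201 CPM, 176 to 228). Multipotent HSPCs were in turn 2.702-fold (2.03 to 3.64) above myeloid progenitors (74.2 CPM). Erythroid cells were at 13.5 CPM, and chondrocytes had 0 UMIs and all 435 listed ECs 2. *Spi1* was thus highest in the cells that also carried osteoclast genes. Annotated exons overlap those of other genes for *Mecom*, *Meis1* and *Myb*, and these other genes had at most 7 UMIs over both libraries.

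Shares of cells with a UMI depend on depth, which ranged over the listed classes from a median of 1358 UMIs in aBMSCs, a stromal class, to 9239 in erythroid cells, with 2765 in chondrocytes and 6311 in multipotent HSPCs. In multipotent HSPCs *Hlf* was detected in 39.3% of cells, and in 17.9% as the share computed for cells thinned to 1000 UMIs. The chondrocyte shares were 1.15% and 0.545%. *Mllt3* was detected in 4.23% of thinned multipotent cells against 3.84% of thinned chondrocytes, a class at a similar level. *Mecom*, at 1.65% against 1.09%, lay near the chondrocyte share too. *Myb* (26.5% against 0.213%), *Spi1* (19.8% against 0%) and *Lmo2* (17.7% against 0.0174%) were far above their chondrocyte shares. In megakaryocyte progenitors (median 5608 UMIs) the thinned share of *Hlf* was 25.4%, that of *Meis1* 18.2% and that of *Mecom* 5.54%. In arterial ECs (median 2856 UMIs) it was 36.8% for *Mecom* and 37.5% for *Lmo2*. Thinning left out 0 multipotent cells, 2 megakaryocyte progenitors, 4 arterial ECs and 20 chondrocytes with under 1000 UMIs. Among the 4 listed HSPC subsets the thinned share was highest in megakaryocyte progenitors for 8 members, in myeloid progenitors for 1 and in the *Ctsk*-high listed progenitors for 1. By this measure no share of all genes was computed, so these counts have no reference. Outside these subsets, arterial ECs exceeded the megakaryocyte progenitors for *Mecom* and *Lmo2* (30.1% in the latter), and erythroid cells for *Myb* (39.3% against 37.1%) and *Tal1* (17.7% against 15.3%).

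Counted per cell, a listed megakaryocyte progenitor held UMIs of 5.02 of the 10 genes on average, and 68.5% of these cells held 5 or more. Listed multipotent HSPCs held 3.31, with 32.4% at 5 or more, and listed erythroid cells 3.78. Arterial ECs held 2.07, the *Ctsk*-high listed progenitors 1.36 and chondrocytes 0.205. Thinned to 1000 UMIs, megakaryocyte progenitors held 1.90, while erythroid cells (1.11), multipotent HSPCs (1.07) and arterial ECs (1.06) were close to each other and chondrocytes held 0.0778.

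Clustering of both libraries together, in which none of the 10 genes was used, gave 1185 haematopoietic cells in 15 clusters, named from marker lists with names ending in "-like". The listed multipotent HSPCs were mixed: 90 of 173 (52.0%) fell in the 2 stem and multipotent-like clusters, 24 in the granulocyte-monocyte progenitor-like cluster, 11 in the macrophage-like cluster and 33 and 15 in 2 unnamed clusters. The leading genes of the granulocyte-monocyte progenitor-like cluster held eosinophil granule genes (*Prg2*, *Prg3*, *Epx*, *Ear1* and *Ear6*) beside *Elane*, *Ctsg*, *Prtn3* and *Ms4a3*. No eosinophil list was used, so here and below its name does not tell such cells apart. Of the 89 listed megakaryocyte progenitors, 49 (55.1%) fell in the same stem and multipotent-like clusters and 32 (36.0%) in the megakaryocyte-like cluster. *Hlf* followed the cluster and not the list. It was at 435 CPM (386 to 489) in the part of the multipotent HSPCs that fell in the stem clusters and 11.96 CPM (4.39 to 26.04) in the others. Among megakaryocyte progenitors it was at 505 CPM (420.1 to 601) in stem clusters and 54.9 CPM (26.3 to 101) in the megakaryocyte-like cluster. *Mecom* (76.7 and 5.49 CPM) and *Nkx2-3* (117 and 5.49 CPM) showed the same split of the megakaryocyte progenitors. Within the stem clusters *Mecom* and *Nkx2-3* also differed between the lists, but the lists drew unlike mixes of the 2 clusters. Cluster 0, described below, held 31 of the 90 multipotent HSPCs and 38 of the 49 megakaryocyte progenitors. The part of this mix in the differences was not tested. In the stem clusters *Mecom* was at 27.7 CPM (16.4 to 43.7) in multipotent HSPCs, below the megakaryocyte progenitors (46.2 to 120). *Nkx2-3* was at 38.4 CPM (24.9 to 56.8) in the former, again below the latter (78.4 to 168). *Meis1* (226 and 170.3 CPM) and *Tal1* (198 and 176 CPM) were closer in both parts. *Gata2* was the reverse, at 452 CPM in stem clusters and 665 CPM in the megakaryocyte-like cluster, as was *Lmo2* (299 and 451 CPM). *Spi1* was at 128 CPM in the multipotent HSPCs of the stem clusters and 295 CPM in the rest, so the multipotent *Spi1* level came mostly from cells outside the stem clusters. The multipotent HSPCs were then restricted to the stem clusters and the megakaryocyte progenitors to the megakaryocyte-like cluster, a choice made after seeing the data. The multipotent HSPCs then held the highest level of 3 members (*Hlf*, *Mecom* and *Nkx2-3*) and the megakaryocyte progenitors of 4. No share of all genes was computed for this restriction, so these counts have no reference. The restriction left out the 49 megakaryocyte progenitors of the stem clusters. Those cells were higher in these 3 members than the multipotent HSPCs of the stem clusters, though for *Hlf* the intervals overlapped. The unlike mix of the 2 stem clusters was not matched in this comparison either.

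**Figure D2:**
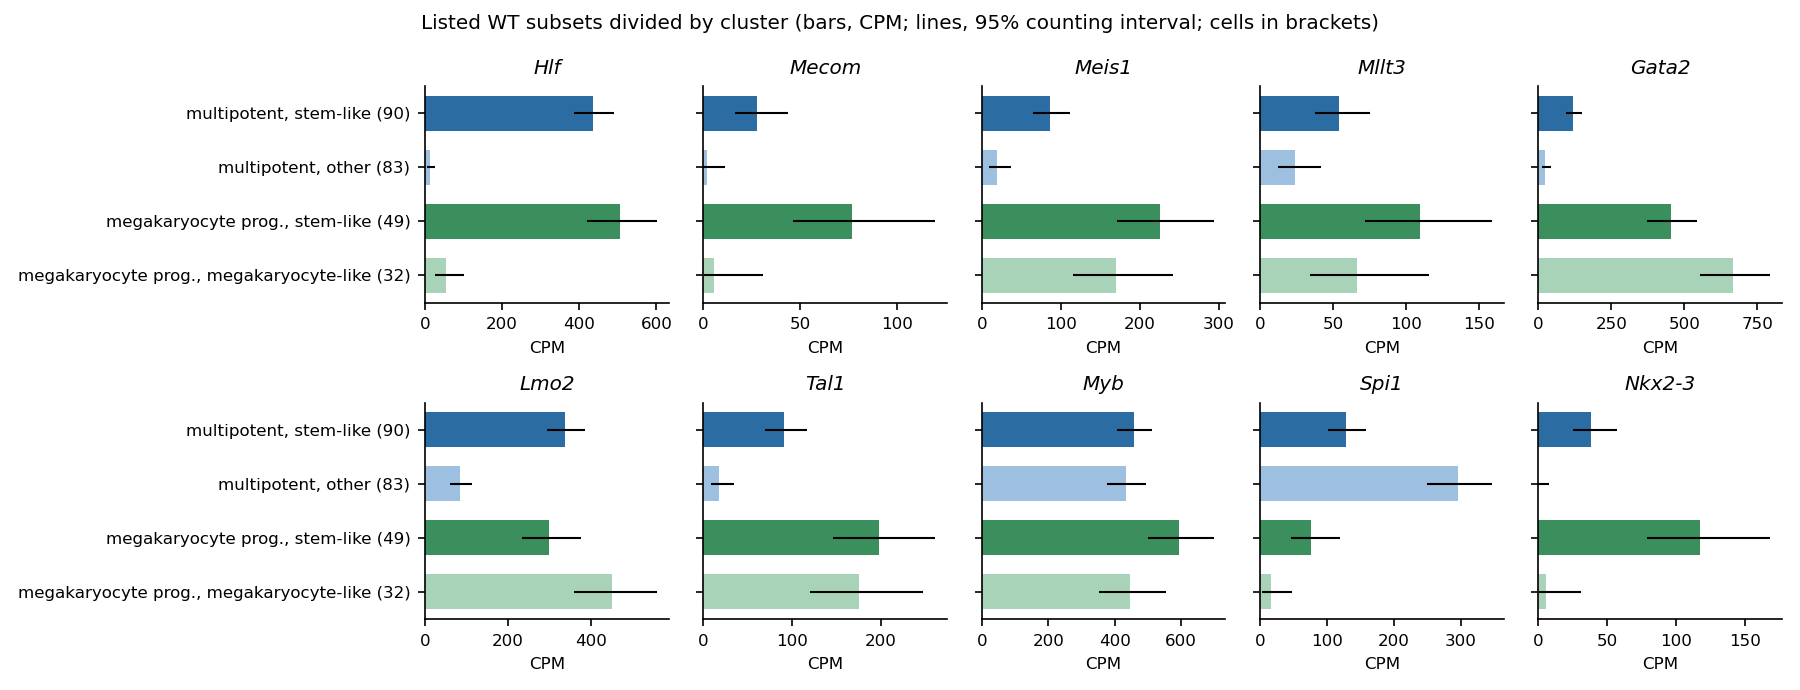
Level (CPM) of each gene in the listed multipotent HSPCs and megakaryocyte progenitors, split by the cluster in which the cells fell, with 8 megakaryocyte progenitors in other clusters not drawn. *Hlf* was at 435 and 505 CPM in the stem clusters against 11.96 and 54.9 CPM outside them.

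The 2 stem and multipotent-like clusters differed in these genes, although none had been used to form them. Cluster 0 held 83 WT and 58 Wls mutant cells and was led by *Nkx2-3*, *Hbb-bt*, *Hlf*, *Myct1* and *Plk2*. Cluster 1 held 92 WT and 45 Wls mutant cells, was led by *Cd34*, *BC035044* and *Eltd1*, and had median depths of 7108 and 7600 UMIs against 4663 and 4789.5 in cluster 0. *Hlf* was at 728 CPM in cluster 0 and 298 CPM in cluster 1 of the WT library, a ratio of 2.44 (2.04 to 2.94). In the Wls mutant library it was at 656 and 192 CPM, a ratio of 3.42 (2.58 to 4.59). *Hlf* was thus higher in cluster 0 in both libraries. *Mecom* was at 78.2 and 15.1 CPM in the WT library, a ratio of 5.17 (2.48 to 11.8). In the Wls mutant library it had 31 UMIs in cluster 0 and 0 in cluster 1, at least 12.4-fold with cluster 1 set at the floor of 3 UMIs. *Mllt3* had ratios of 4.12 (2.41 to 7.30) and 4.20 (2.17 to 8.76), from 125 against 30.2 CPM and 144 against 34.4 CPM. So *Mllt3*, level with chondrocytes in the listed multipotent HSPCs as a whole, was well above them in cluster 0. *Nkx2-3* had 69 UMIs in cluster 0 and 0 in cluster 1 of the WT library (at least 37.2-fold), and 62 and 6 UMIs in the Wls mutant library, a ratio of 12.4 (5.38 to 35.1). Cluster 0 therefore held 69 of the 74 WT UMIs of *Nkx2-3*. *Meis1* had ratios of 1.93 (1.36 to 2.76) and 3.09 (1.79 to 5.56).

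These 4 members (*Hlf*, *Mecom*, *Mllt3* and *Nkx2-3*) were over 2-fold higher in cluster 0 in both libraries, against 1.25% of the 2790 genes with at least 50 UMIs in each. *Mecom* did not reach that minimum in either library, which leaves 3 members. Counted by library with that minimum, 3 members passed 2-fold in the WT and 4 in the Wls mutant library, against 2.64% of 4352 genes and 2.64% of 2801 genes. *Gata2* was also higher in cluster 0, with ratios of 1.47 (1.13 to 1.92) and 1.504 (1.04 to 2.18). *Lmo2* had ratios of 1.12 (0.896 to 1.396) and 1.38 (1.05 to 1.82) and *Tal1* of 1.89 (1.32 to 2.74) and 1.10 (0.657 to 1.82), each above 1 beyond counting error in 1 library. *Myb*, with 0.902 (0.752 to 1.08) and 0.790 (0.615 to 1.01), and *Spi1*, with 0.777 (0.513 to 1.16) and 0.899 (0.605 to 1.33), did not differ beyond it. At double the clustering resolution, where the counterpart of cluster 0 had no name, the count without a minimum was 3 instead of 4, as the WT ratio of *Hlf* was 1.89 (1.56 to 2.30). Cells were clustered on other genes of the same cells, so these ratios are a description and not a test.

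**Figure D3:**
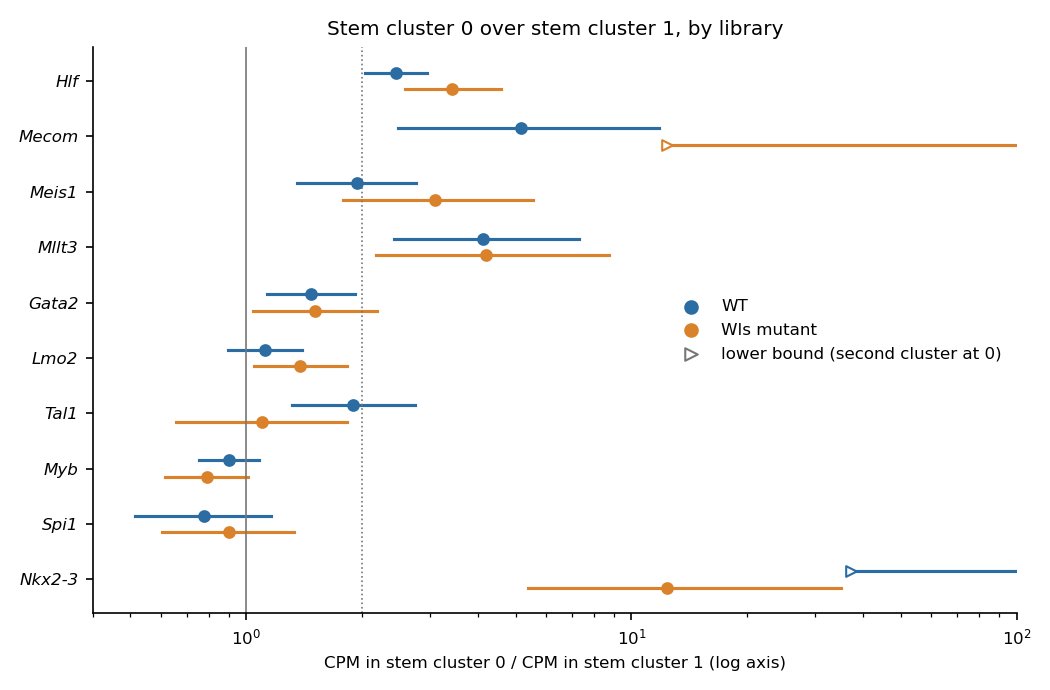
Ratio of each gene's level in stem cluster 0 to that in stem cluster 1 (log axis, 95% counting intervals) in both libraries, with triangles as lower bounds where cluster 1 had 0 UMIs. *Hlf*, *Mecom*, *Mllt3* and *Nkx2-3* lay above 2 in both, from 2.44 for WT *Hlf* upward, and *Myb* and *Spi1* lay below 1 with intervals that held 1.

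Some other genes from the fixed lists went along with these members. *Mycn*, a driver of stem cell growth, was at 97.7 CPM in cluster 0 and 33.3 CPM in cluster 1 of the WT library, with ratios of 2.94 (1.70 to 5.19) and 4.14 (2.08 to 8.99) in the 2 libraries. The stem cell surface gene *Procr* was at 51.3 against 3.02 CPM in the WT library. Both were chosen after their values were seen, and others of these lists did not go along, such as *Runx1*, with ratios of 0.732 (0.557 to 0.955) and 0.927 (0.665 to 1.29), and *Cd34*, with 0.892 (0.782 to 1.02) and 0.780 (0.660 to 0.921). The lineage factors were divided. *Cebpa* and *Irf8* lay on the other side, *Cebpa* with ratios of 0.235 (0.0967 to 0.496) and 0.120 (0.0234 to 0.386) and *Irf8* with 0.0822 (0.0165 to 0.252) and 0.245 (0.105 to 0.509). *Cebpb* was higher in cluster 0 in the WT library, with ratios of 2.63 (1.92 to 3.62) and 1.27 (0.772 to 2.09), and *Zfpm1* in both, with 2.01 (1.24 to 3.28) and 2.40 (1.42 to 4.15), as was *Gata1* on 17 against 5 and 12 against 1 UMIs. The granulocyte-monocyte gene *Mpo* was at 215 CPM in cluster 0 and 1809.8 CPM in cluster 1 of the WT library. Erythroid markers summed to 181 CPM in WT cluster 0, 149 CPM of it *Hbb-bt*, and their part in the ratios was not tested.

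The promoters of the 4 members that were over 2-fold apart between the clusters in both libraries are shown because these genes moved together there. Each covers 250 bases before to 50 after a RefSeq start site (build GRCm38.p6), at chr11:90390868-90391167 on the minus strand for *Hlf*, chr3:30509710-30510009 on the minus strand for *Mecom*, chr4:88033358-88033657 on the minus strand for *Mllt3* and chr19:43612075-43612374 on the plus strand for *Nkx2-3*. Capitals mark matches to the 8 motifs searched on both strands.
Hlf: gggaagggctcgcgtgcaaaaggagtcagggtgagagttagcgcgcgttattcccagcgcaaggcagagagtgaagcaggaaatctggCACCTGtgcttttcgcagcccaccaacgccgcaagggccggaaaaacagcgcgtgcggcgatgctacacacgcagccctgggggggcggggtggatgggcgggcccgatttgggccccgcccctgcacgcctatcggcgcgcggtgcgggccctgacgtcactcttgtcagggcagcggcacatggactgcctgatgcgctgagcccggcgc
Mecom: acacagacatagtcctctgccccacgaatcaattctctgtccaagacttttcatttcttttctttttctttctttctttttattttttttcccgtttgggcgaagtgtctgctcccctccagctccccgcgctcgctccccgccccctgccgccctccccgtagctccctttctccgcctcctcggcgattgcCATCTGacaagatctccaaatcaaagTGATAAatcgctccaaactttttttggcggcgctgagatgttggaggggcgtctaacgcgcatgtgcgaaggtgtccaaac
Mllt3: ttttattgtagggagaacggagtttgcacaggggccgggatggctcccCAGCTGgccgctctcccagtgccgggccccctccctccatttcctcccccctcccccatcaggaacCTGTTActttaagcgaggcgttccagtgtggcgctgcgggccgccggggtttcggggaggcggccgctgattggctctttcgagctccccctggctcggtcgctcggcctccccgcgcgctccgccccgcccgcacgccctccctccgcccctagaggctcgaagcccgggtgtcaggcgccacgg
Nkx2-3: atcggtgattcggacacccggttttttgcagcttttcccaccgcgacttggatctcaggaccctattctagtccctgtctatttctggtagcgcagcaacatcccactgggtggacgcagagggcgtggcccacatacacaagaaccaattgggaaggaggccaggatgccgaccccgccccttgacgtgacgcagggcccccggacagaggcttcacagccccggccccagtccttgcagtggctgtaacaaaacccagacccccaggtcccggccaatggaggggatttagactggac

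Of the 10 members, 8 were matched in the RefSeq promoter table, with 12 promoters among 32851, and *Lmo2* and *Spi1* were not matched. The E-box CAGNTG, bound by basic helix-loop-helix factors such as *Tal1*, was found in 7 of these 12 promoters, of 6 members, and in 51.4% of all promoters. Among the sequences shown, *Hlf*, *Mecom* and *Mllt3* held 1 each. The GATA words AGATAA (11.2% of all promoters) and TGATAA (9.05%) were each found in 1 of the 12, of *Tal1* and *Mecom*. The ETS word GGAAGT (23.8%) was found in 1, of *Meis1*, and the Myb word TAACNG (23.3%) in 3, of *Meis1* and *Mllt3*. The Meis word TGACAG (19.2%) occurred in 2, of *Mecom* and *Mllt3*, and the Nkx2 word CACTTNA (11.5%) in 3, of *Mecom*, *Meis1* and *Mllt3*. TTANGTAA, read by *Hlf* and its relatives, was in 2.32% of all promoters and in 0 of the members'. The *Nkx2-3* window held none of the 8 words. No motif was shared by all 4 promoters shown, and a match describes letters in this window only.

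In whole libraries, 4 members (*Hlf*, *Lmo2*, *Tal1* and *Myb*) were over 1.5-fold lower in the Wls mutant library, against 6.75% of the 13723 genes with at least 50 UMIs. *Myb* was at 89.1 CPM in the WT and 46.1 CPM in the Wls mutant library, and ratios are given as Wls mutant over WT, here 0.517 (0.480 to 0.557). *Hlf* was at 32.4 and 19.3 CPM (0.596, 0.529 to 0.670), *Lmo2* had a ratio of 0.608 (0.560 to 0.660), *Tal1* of 0.630 (0.558 to 0.711) and *Gata2* of 0.715 (0.665 to 0.769). The other 5 members had ratios from 0.919 for *Spi1* to 1.003 for *Meis1*, with intervals that held 1. Among the members read mostly in blood cells, *Spi1* and *Nkx2-3* thus did not share the lower level. Haematopoietic cells were 12.5% (11.6 to 13.4) of the WT and 7.08% (6.48 to 7.73) of the Wls mutant cells. Stem and multipotent-like cells made up 3.05% (2.62 to 3.53) and 1.56% (1.27 to 1.88), erythroid-like cells 2.98% (2.56 to 3.45) and 1.10% (0.865 to 1.38), and osteoclast-like cells 1.53% (1.23 to 1.89) and 0.831% (0.626 to 1.08). In the other 4 blood classes the intervals overlapped, as for megakaryocyte-like cells at 0.889% (0.663 to 1.17) and 0.785% (0.587 to 1.03) and macrophage-like cells at 0.209% (0.108 to 0.365) and 0.227% (0.127 to 0.373). The lower share was not particular to blood, since endothelial-like cells were 10.2% (9.46 to 11.05) and 7.02% (6.42 to 7.67). All these shares were taken after a magnetic depletion of lineage-committed cells, whose part in the differences was not tested, and are not shares of the marrow.

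The share of a gene's UMIs that came from blood cells differed widely among members. In the WT library 98.0% of *Spi1*, 96.9% of *Myb* and 94.6% of *Nkx2-3* UMIs lay in haematopoietic clusters. *Hlf* (78.0%), *Lmo2* (74.7%) and *Tal1* (79.1%) were lower. *Mecom* had 9.92% there and 47.5% in endothelial-like cells. Only *Hlf* (68.1%) and *Nkx2-3* (93.2%) had most of their WT UMIs in the stem and multipotent-like cells, which were 3.05% of the library. In the Wls mutant library these were 54.8% and 88.3%. Most UMIs came from outside the blood clusters for *Meis1* (45.5% and 28.7% haematopoietic) and *Mllt3* (36.6% and 21.2%).

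**Figure D4:**
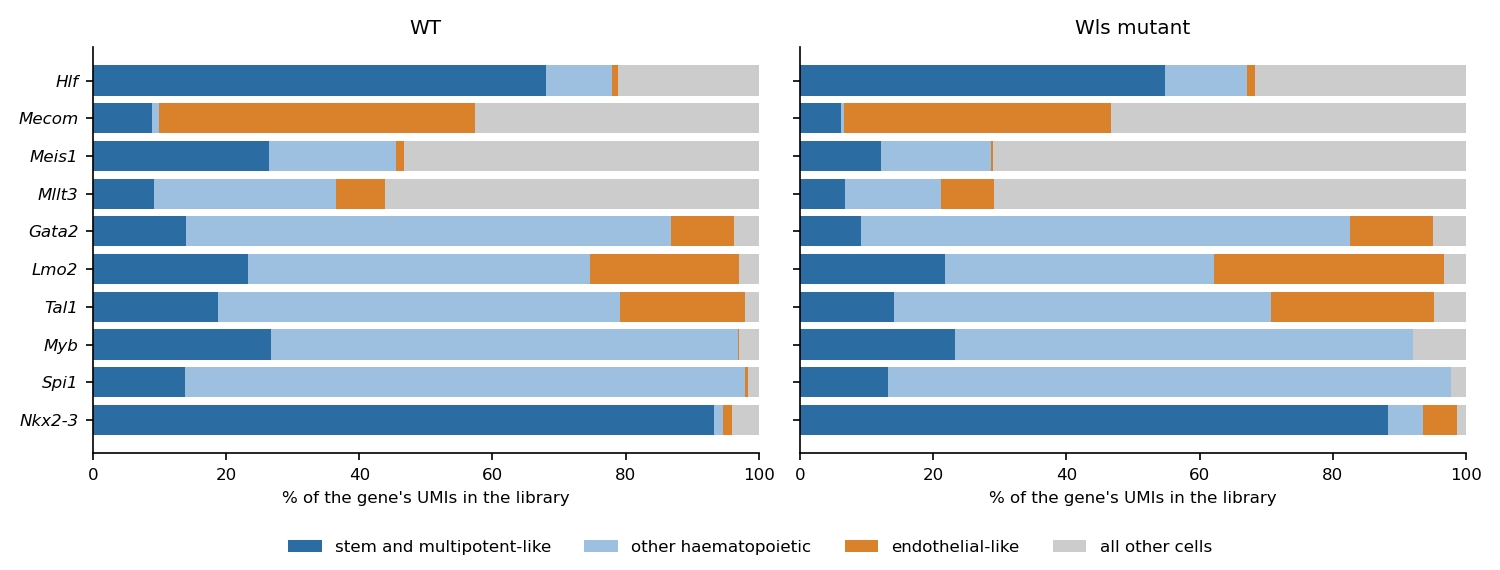
Share (%) of each gene's UMIs that lay in stem and multipotent-like, other haematopoietic, endothelial-like and other cells, in each library. *Nkx2-3* (93.2%) and *Hlf* (68.1%) were the members with most WT UMIs in stem and multipotent-like cells, and *Mecom* had 47.5% in endothelial-like cells.

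Within the stem and multipotent-like cells (175 WT and 103 Wls mutant), 0 of the 10 members were over 2-fold apart between the libraries, against 1.14% of the 5852 genes with at least 50 UMIs. *Hlf* was at 462 CPM in the WT and 403 CPM in the Wls mutant cells, a ratio of 0.871 (0.747 to 1.01). *Mecom* (39.2 and 48.4 CPM) had a ratio of 1.23 (0.750 to 2.01) and *Mllt3* (66.3 and 84.3 CPM) of 1.27 (0.876 to 1.84). No difference in these 3 was detectable at this depth. For *Meis1* (0.848, 0.624 to 1.14), *Gata2* (0.867, 0.692 to 1.08), *Lmo2* (1.05, 0.882 to 1.25), *Tal1* (0.889, 0.651 to 1.20) and *Myb* (0.864, 0.745 to 1.001) the intervals were within 2-fold. The intervals of 2 members lay above 1. *Spi1* was at 109 CPM in the WT and 175 CPM in the Wls mutant cells, a ratio of 1.6 (1.22 to 2.09), and *Nkx2-3* at 64.4 and 106 CPM, a ratio of 1.65 (1.16 to 2.34). Cluster 1 held 92 of the 175 WT cells and 45 of the 103 Wls mutant cells, so the mix of clusters was not the same. Within cluster 0 no member was over 2-fold apart, against 1.4% of 3136 genes, and within cluster 1 none of the 7 members with at least 50 UMIs was, against 1.54% of 4088 genes. In cluster 0 *Nkx2-3* had a ratio of 1.26 (0.881 to 1.81), and *Spi1* of 1.78 (1.14 to 2.79). Within cluster 1 the *Spi1* ratio was 1.53 (1.09 to 2.16) and that of *Hlf* was 0.644 (0.481 to 0.854), while *Nkx2-3* had 0 and 6 UMIs and *Mecom* 10 and 0. In cluster 0 the *Hlf* ratio was 0.901 (0.747 to 1.08), an interval that overlapped that of cluster 1, so the clusters were not shown to differ in it.

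The count of 0 depended on how multipotent cells were defined. When each cell was instead given to the nearest listed WT class, 114 WT and 98 Wls mutant cells were nearest to the multipotent HSPCs, and 3 of the 7 members with at least 50 UMIs were over 2-fold apart (*Hlf*, *Meis1* and *Gata2*), against 2.71% of the genes with that minimum. *Hlf* was then at 180.0 and 82.0 CPM, a ratio of 0.456 (0.320 to 0.640). *Meis1* (0.301, 0.134 to 0.613) and *Gata2* (0.434, 0.238 to 0.757) were lower as well, and so was *Lmo2* by less (0.629, 0.486 to 0.809). On fewer UMIs, *Mllt3* (29 and 9) had a ratio of 0.374 (0.156 to 0.812) and *Nkx2-3* (3 and 9) one of 3.62 (0.903 to 20.8), an interval that held 1. The make-up of this group differed between the libraries, with 50.9% (41.3 to 60.4) of its WT and 33.7% (24.4 to 43.9) of its Wls mutant cells in the stem and multipotent-like clusters, and its part in these ratios was not tested. *Spi1* kept its direction, at 156 and 248 CPM (1.59, 1.23 to 2.05).

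*Spi1* was higher in the Wls mutant library in all 6 haematopoietic classes compared, each time by over 1.4-fold, as were 0.404% of the 3469 genes with at least 20 UMIs in each class. By any amount, 6.63% of them were higher in all 6. *Spi1* was the 1 member that reached this minimum, and the comparison was made after its values were seen. In osteoclast-like cells it was at 478 CPM (431 to 528) in 88 WT cells and 748 CPM (673 to 830.1) in 55 Wls mutant cells, a ratio of 1.57 (1.35 to 1.81). In granulocyte-monocyte progenitor-like cells the ratio was 1.56 (0.948 to 2.57), in erythroid-like cells 1.59 (0.565 to 4.24) and in basophil and mast-like cells 1.45 (0.849 to 2.49). In megakaryocyte-like cells it rested on 5 WT and 18 Wls mutant UMIs, a ratio of 3.03 (1.08 to 10.4). The intervals of the stem and multipotent-like, megakaryocyte-like and osteoclast-like ratios lay above 1, and the other 3 held 1. The few macrophage-like cells, counted apart, gave 1.49 (0.745 to 3.07). Neutrophil markers stood further apart between the whole libraries, with 21 and 829 UMIs of *S100a8* and 7 and 1110 of *S100a9*. The 8 markers had 6 UMIs in WT and 0 in Wls mutant stem and multipotent-like cells and 0 in the osteoclast-like cells of either library, and a part of neutrophils in the *Spi1* ratios was not tested. The direction was not general to single clusters, as the ratio was 0.841 (0.502 to 1.43) and 0.899 (0.457 to 1.74) in 2 unnamed clusters and 0.940 (0.463 to 1.84) in a basophil and mast-like one. Since each genotype had 1 library, *Wls* deletion and other differences between the libraries cannot be told apart.

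In the other classes, no member with at least 50 UMIs was over 2-fold apart between the libraries. The share of genes with that minimum that were so was 1.48% in erythroid-like, 1.42% in megakaryocyte-like, 1.48% in basophil and mast-like, 1.47% in osteoclast-like, 3.09% in granulocyte-monocyte progenitor-like and 0.839% in endothelial-like cells. It was 5.61% in macrophage-like cells, where no member had 50 UMIs. In erythroid-like cells *Lmo2* was at 340.3 and 332 CPM (0.976, 0.830 to 1.15), *Myb* at 465 and 421 CPM (0.904, 0.784 to 1.04) and *Tal1* at 181 and 191 CPM (1.05, 0.846 to 1.30). The erythroid factors did not differ beyond counting error, while the erythroid-like share of cells did. In megakaryocyte-like cells *Lmo2* was at 358 and 262 CPM (0.731, 0.548 to 0.975), the 1 member below 1 beyond counting error there. By nearest listed class the *Lmo2* ratio in megakaryocyte-like cells was 1.10, so its direction depended on how the cells were defined. Basophil and mast-like cells had *Gata2* at 1530.4 and 1771 CPM (1.16, 1.03 to 1.30), and *Meis1*, with 13 and 27 UMIs, at a ratio of 2.55 (1.27 to 5.39). This class pooled 3 clusters in unequal mix, with 36 of 63 WT and 18 of 48 Wls mutant cells in 1 of them, and within the clusters *Gata2* kept that direction in 1 and was lower in the other two, with ratios of 1.19 (0.973 to 1.45), 0.805 (0.687 to 0.944) and 0.604 (0.384 to 0.930). In osteoclast-like cells *Hlf* had 0 and 10 UMIs, all in 1 Wls mutant cell.

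Endothelial cells, the type in which *Wls* was to be deleted, had levels of these genes that did not differ beyond counting error. In endothelial-like cells (587 WT and 465 Wls mutant) *Mecom* was at 113 and 111 CPM (0.979, 0.805 to 1.19), *Lmo2* at 164 and 187 CPM (1.14, 0.977 to 1.33) and *Tal1* at 63.3 and 63.5 CPM (1.004, 0.773 to 1.30). In the cells nearest to arterial ECs (74 and 67) *Mecom* was at 527 CPM (439 to 627) and 448 CPM (373 to 533), a ratio of 0.850 (0.658 to 1.10). *Lmo2* had a ratio of 1.06 (0.834 to 1.36) and *Gata2* of 1.22 (0.805 to 1.87) there. No member with at least 50 UMIs was over 2-fold apart in them, against 1.89% of 1962 genes, and no endothelial interval named here left out 1.

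**Figure D5:**
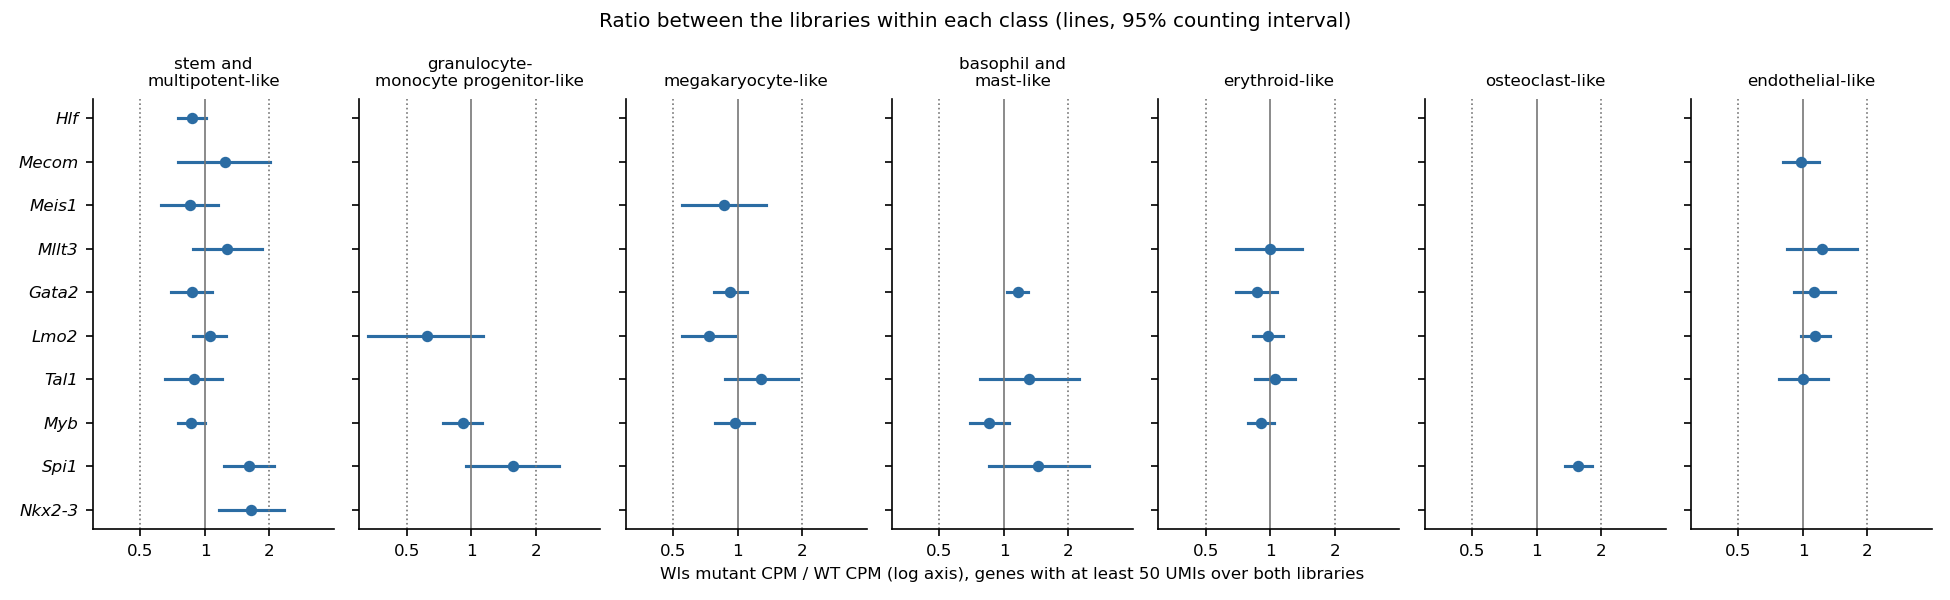
Wls mutant to WT ratio (log axis, 95% counting intervals) of members with at least 50 UMIs in 7 classes. *Spi1* reached 1.6 in stem and multipotent-like and 1.57 in osteoclast-like cells, and *Mecom* lay at 0.979 in endothelial-like cells.

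Per cell, stem and multipotent-like cells held UMIs of 4.78 members on average in the WT and 4.82 in the Wls mutant library, at median depths of 5992 and 5884 UMIs. Thinned to 1000 UMIs, the means were 1.69 and 1.68. Co-detection in these cells was therefore close in both libraries. Osteoclast-like cells held 1.44 and 1.45, and thinned 0.444 and 0.543. In erythroid-like cells the thinned means were 1.11 and 1.08, but 24.6% of the WT and 41.1% of the Wls mutant cells, not thinned, held 5 or more members.

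The levels over the 18 listed classes, on a log scale with 10 CPM added, were compared with those of all genes with at least 200 UMIs by Pearson's r, and the closest are given as a description, since classes of 1 library share depth and free RNA. Among the 3 closest to *Hlf* were *Ikzf2* (0.888) and *H2afy* (0.885). *Lmo2* was most like *Hhex* (0.955), with *Tal1* (0.920) the third, and *Tal1* like *Vamp5* (0.952) and *Gpr56* (0.946), which was also closest to *Gata2* (0.939). Among the 3 closest to *Myb* were *Treml2* (0.987) and *Ikzf1* (0.986), and among those to *Spi1* were *Nfam1* (0.985) and *Ptprc* (0.966). *Meis1* was closest to *Mdga1* (0.907), *Mecom* to *Arl15* (0.884) and *Mllt3*, the least so, to *Gm10073* (0.796). Among members, *Lmo2* and *Tal1* (0.920), *Gata2* and *Tal1* (0.916) and *Gata2* and *Lmo2* (0.898) were most alike, followed by *Hlf* and *Nkx2-3* (0.892). *Hlf* and *Mecom* were not alike over the 18 classes (-0.0791) but were over the 5 blood classes alone (0.896). Of the 30 closest genes, 13 were the same when 1 CPM was added instead of 10.

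Other genes of the same biology were read from 4 fixed lists at a level of at least 100 CPM. In WT stem and multipotent-like cells 14 of 29 partners and stem cell regulators reached it, among them *Hmga2* (1300.1 CPM), *Runx1* (246 CPM), *Hoxa9* (191 CPM) and *Erg* (109 CPM). Of 15 lineage factors 2 did (*Cebpb* and *Nfe2*), of 17 paralogs of the members 1 (*Lmo4*, 247 CPM), and of 12 surface and receptor genes 5, led by *Cd34* (932 CPM). Of all 22652 genes, 9.63% reached it. The other 16 paralogs stayed under 100 CPM in these cells. In arterial ECs *Mecom* and *Lmo2* stood beside *Sox17* (675 CPM) and *Sox18* (1005 CPM), in listed erythroid cells *Tal1* and *Lmo2* stood beside *Gata1* (318 CPM) and *Klf1* (257 CPM), and in osteoclast-like cells *Spi1* stood beside *Nfatc1* (2213 CPM) and *Mitf* (125 CPM). Between the libraries, 0 of 21 partners, 0 of 6 lineage factors, 0 of 2 paralogs and 0 of 7 surface genes with at least 50 UMIs were over 2-fold apart in stem and multipotent-like cells. Of all 5852 genes with that minimum only 1.14% were, so these counts of 0 do not set the lists apart.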

How the data were processed

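BD Rhapsody whole-transcriptome libraries of lineage-depleted E18.5 bone marrow cells were used, 1 WT and 1 Wls mutant (Bmx-CreER Wls). The authors deposited, as raw count values without normalization, UMIs per gene and cell barcode. The submitters' processing notes name bcl2fastq 2.19.1.403, UMI-tools 1.0.1, STAR 2.7.1a, Subread, featureCounts 1.6.4 and mm10. Neither the strand of counting nor a cell filter before deposit is given in the sources used here.

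Listed classes are the authors' published cell lists of the WT library, joined by barcode. The 10 members and the gene lists were chosen with earlier results of these data known, and by the rule for named genes the text names the members, genes of the fixed lists, the leading genes of the clusters and the 3 genes with the most similar pattern. Cells with over 200 and under 5000 genes and under 30% mitochondrial UMIs were clustered over both libraries on log-normalised counts (scale factor 10000) without the members, cell cycle genes, *Xist* and Y-linked genes, with 11 principal components, 20 neighbours and Leiden resolution 0.5. The haematopoietic clusters were clustered again at resolution 1 and named from marker lists. Doublets were kept. Scrublet called 38 WT cells (0.662%) and 0 Wls mutant cells, where its threshold did not separate doublets, so an alternative left out the 5% of cells with the highest scores.

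Levels are summed UMIs per 1000000 (CPM). A count of 0 was set at 3 counts in ratios, and intervals were checked on simulated data. Shares were also computed for cells thinned to 1000 UMIs. Alternatives were TMM scaling, totals that leave out haemoglobin and mitochondrial genes, a mean over cells, stricter cell filters, the nearest listed class, 30 principal components, double the subclustering resolution, other UMI minimums and folds, and, chosen after seeing the data, each stem cluster alone, listed cells restricted by cluster, cells without shared barcodes and other settings for similar genes. Tools were Python 3.11.15, scanpy 1.11.5, anndata 0.12.19, numpy 2.4.6, pandas 2.3.3, scipy 1.17.1, scikit-learn 1.9.0, igraph 0.11.9, leidenalg 0.10.2, matplotlib 3.10.9, R 4.3.3 and edgeR 4.0.16. Gene positions are from GENCODE on GRCm38.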

Additional observations from a re-analysis of the deposited data

How the results depend on the processing

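Of the 550 levels recomputed under the alternatives, 526 moved within their counting intervals and 24 beyond them. Of 493 ratios between the libraries, 477 moved within their intervals, 15 beyond them and 1 reversed: the ratio of *Lmo2* in megakaryocyte-like cells (Wls mutant over WT) was 1.10 by nearest centroid of the listed WT classes. The number of the 10 genes highest in multipotent HSPCs among the 4 listed subsets, 0 as reported, was 3 with the listed cells restricted by cluster. That alternative was chosen after seeing the data, and no share of all genes was computed for it. The number of the 10 genes over 2-fold apart between the libraries in stem and multipotent-like cells, 0 as reported, was 2 at a threshold of 1.5-fold (*Spi1* and *Nkx2-3*), 5 by nearest centroid, 1 at double the subclustering resolution and 1 in stem cluster 1 only (*Nkx2-3* in both). Counted with at least 50 UMIs, these last 3 were 3, 0 and 0, since *Nkx2-3* rested on 3 and 9, 1 and 5, and 0 and 6 UMIs and *Mllt3*, by nearest centroid, on 29 and 9. At double the resolution the class held only 68 WT and 31 Wls mutant cells, the counterpart of cluster 1, as that of cluster 0 had no name. The percent of genes over 2-fold apart between the libraries in stem and multipotent-like cells was 3.78 at a minimum of 20 UMIs, 0.164 at 200 UMIs, 2.71 by nearest centroid, 1.52 at double the resolution and 1.54 in stem cluster 1 only. At 1.5-fold no such percent was computed, so the count of 2 members there has no reference. The number of the 30 genes of most similar pattern that were the same was 13 with a pseudocount of 1. The cause was not tested. Leaving out shared barcodes removed at most 4 cells of a class and library, and leaving out cells with over 1% stromal and endothelial marker UMIs removed 0 of 173 multipotent HSPCs and 1 of 89 megakaryocyte progenitors, so values that stayed under these alternatives say little. No paired analysis was possible because each genotype had 1 library from different embryos. With 30 principal components the 2 stem clusters fell into 1, so their comparison could not be run. Depth limits *Nkx2-3*, *Mecom* and *Mllt3* most: in stem and multipotent-like cells their library ratios had intervals of over 2-fold width.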
